A study of Mus musculus with 10 samples.

Results

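The 9 genes described here encode Polycomb repressive complex 2 (PRC2): the catalytic subunits Ezh1 and Ezh2, the core subunits Eed and Suz12, and the accessory subunits Jarid2, Aebp2, Mtf2, Phf1 and Phf19. They were taken from a fixed list of symbols, matched to the Ensembl IDs of the count table, which holds 36191 gene IDs: Ezh1 is ENSMUSG00000006920, Ezh2 is ENSMUSG00000029687, Eed is ENSMUSG00000030619, Suz12 is ENSMUSG00000017548, Jarid2 is ENSMUSG00000038518, Aebp2 is ENSMUSG00000030232, Mtf2 is ENSMUSG00000029267, Phf1 is ENSMUSG00000024193 and Phf19 is ENSMUSG00000026873. The list was chosen with earlier results of these data known. All 9 genes were among the 15819 that passed the filter on low counts. RNA was sequenced from wild type mouse embryonic stem (ES) cells and from Rybp null mutant ES cells, both on the 129x1 x 129S1 strain background, and from cardiac cultures derived from each through hanging-drop embryoid bodies. Each genotype had 1 library at day 0, when the cells were ES cells grown with leukemia inhibitory factor, and 2 libraries at each of days 8 and 14 of differentiation. The labels give both genotypes the same protocol. The labels do not say whether each genotype is 1 clone, nor whether replicates came from separate cultures, so p-values measure the spread between these libraries, which may be technical.

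PRC2 is the enzyme complex that methylates lysine residues on the tail of histone H3 to produce the H3K27me3 mark of silenced developmental genes. Every form of the complex holds an EZH methyltransferase, EED, which reads the mark and stimulates the enzyme, and SUZ12, the scaffold on which accessory subunits assemble in alternative sets: either a Polycomb-like protein (PHF1, MTF2 or PHF19) or JARID2 with AEBP2. EZH2 is the form of dividing cells and ES cells, while EZH1 is typical of resting and differentiated cells. RYBP belongs to the other Polycomb complex, PRC1, which ubiquitinates histone H2A, a modification that JARID2 and AEBP2 bind.

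Library totals ran from 3028153 to 6890792 counts, the largest being that of the null ES cells. Rybp, the targeted gene, held 1 to 4 counts in each null library and 64 to 231 counts in each wild type library. The 6 ES cell markers summed to 5972 CPM in wild type and 10720 CPM in null ES cells (CPM are counts scaled by library size to a common total) and to 19.5 to 110 CPM in later libraries. Nanog alone held 4088 and 8244 CPM of the ES cell sums. Tdgf1, Esrrb and Zfp42 also read higher in null ES cells. Pou5f1 (154 against 171.5 CPM) and Sox2 (158.6 against 182.1 CPM) read lower there. The 8 cardiomyocyte markers summed to 2494 and 2053 CPM in the wild type libraries of day 8 against 105 and 59.0 CPM in the null ones, and to 1007 and 885 against 171 and 243 CPM at day 14, so the null cultures carried the cardiac label with low sums of its markers. ES cells summed to 353 and 147 CPM, of which Ttn held 341 and 132 CPM. By edgeR 6 of the 7 tested were lower at day 8 and 4 at day 14 (adjusted p under 0.05). Of all genes 1.26% and 0.613% passed, in either direction. Tnni3 was not lower at day 8 (log2 0.48), and Nkx2-5 held at most 1 count in a library. The 5 mesenchyme markers were abundant in every later library, at 3808 to 8610 CPM. Macrophage markers (5) reached 302 and 403 CPM in wild type and 121 and 140 CPM in null cultures at day 14, and germ cell markers (5) summed to 34.4 to 109 CPM in the 4 null cultures against 1.97 to 3.57 CPM in the wild type ones. Germ cell sums were higher in ES cells, at 139.5 CPM in wild type and 498.4 CPM in null cells. Of these markers Ddx4, Mael, Sycp3 and Tex11 read higher in null cultures. Dazl read lower there (log2 −1.09 at day 8 and −1.51 at day 14). These are bulk samples, in which fewer cells of a type and less RNA per cell cannot be told apart. The replicates of null day 8 differed most among the replicate pairs, and the 5 erythroid markers summed to 2600 CPM in replicate 1 and 858 CPM in replicate 2.

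Levels of different genes were compared per kilobase of annotated exon. At day 0 Mtf2 was the highest of the 9 in both genotypes, at 222 CPM per kilobase in wild type and 267 in null cells. Suz12, Eed, Jarid2 and Ezh2 followed at 67.0 to 107 CPM per kilobase in wild type and 74.0 to 105 in null cells, and Aebp2 stood at 35.7 and 47.6. Ezh1 was far lower, at 3.10 and 2.80 CPM per kilobase, and Phf19 (1.83 and 0.504) and Phf1 (0.568 and 0.146) were lowest. The summed level of the 9 genes was 620 and 664 CPM per kilobase at day 0. It was 144 and 161 in the wild type libraries of day 8, 176 and 179 in the null ones, and 124 to 148 in the 4 libraries of day 14. At day 14 Suz12 (29.2 ± 5.99, SD, n = 2) and Mtf2 (28.6 ± 5.78) led in wild type cultures and lay within their spread of each other. In null cultures Aebp2 (28.5 ± 1.63), Mtf2 (28.5 ± 2.94) and Eed (26.2 ± 5.61) did likewise. The order of genes depends on the length used. Per kilobase of longest transcript, the wild type libraries of day 14 held 43.32 and 40.3 for Ezh2. They held 45.92 and 34.45 for Mtf2 and 37.77 and 28.19 for Suz12. Single-gene levels below are in CPM without the length term.

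**Figure D1:**
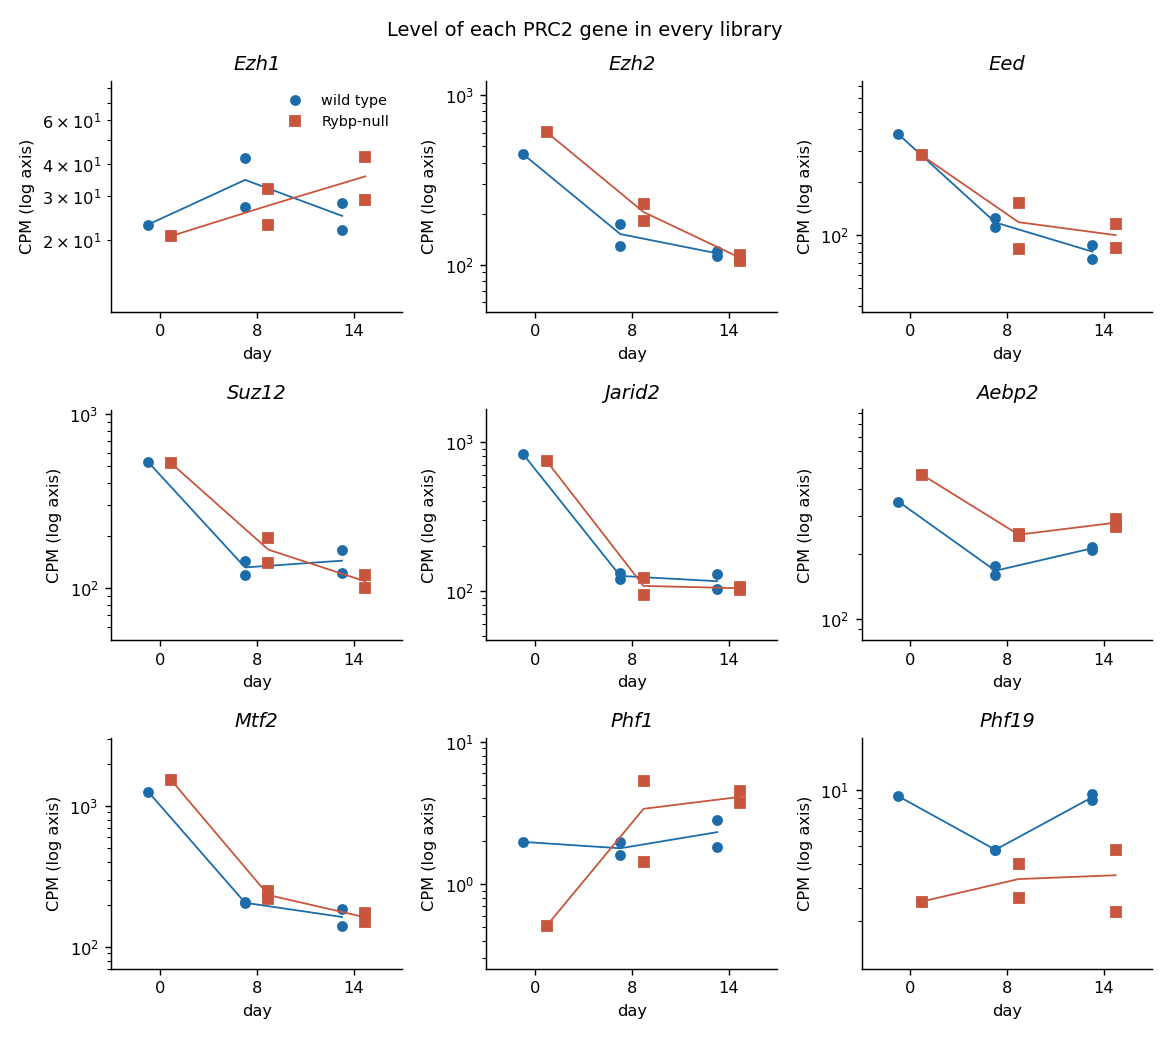
CPM of each PRC2 gene on a log axis by day, with wild type libraries as circles, Rybp-null libraries as squares and lines through the group means; each panel has its own range. Mtf2 falls from 1265 and 1521 CPM at day 0 to 140 to 248 CPM later, while Ezh1 stays between 20.8 and 42.8 CPM in all 10 libraries.

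Ezh2, the main methyltransferase of proliferating cells, was at 447 CPM in wild type ES cells, at 129 and 174 CPM in the 2 wild type libraries of day 8 and at 121 and 112 CPM at day 14. Null ES cells had 605 CPM, and null cultures were at 181 and 228 CPM at day 8 and 113 and 105 CPM at day 14. Every later library lay below both ES cell libraries. From day 0 to day 8 Ezh2 in wild type cells fell by 1.56 on the log2 scale (SE 0.22, adjusted p = 0.000154), and to day 14 by 1.94 (SE 0.22, adjusted p = 2.84e-05), by edgeR's quasi-likelihood test with Benjamini-Hochberg adjustment over all genes, the source of each adjusted p below unless another tool is named. In null cells the same changes were −1.57 (SE 0.22, adjusted p = 0.000157) and −2.47 (SE 0.22, adjusted p = 3.65e-06). A gene is written as having risen or fallen, or as called, where the adjusted p was under 0.05. For all comparisons with day 0, the lone ES cell library of a genotype is assumed to vary like the replicated groups.

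Ezh1, the alternative catalytic subunit, had no called change with day. It was at 23.1 CPM in wild type ES cells, at 27.2 and 42.3 CPM at day 8 and at 21.9 and 28.1 CPM at day 14. Null ES cells had 20.8 CPM, null cultures 23.0 and 31.9 CPM at day 8 and 42.8 and 28.9 CPM at day 14. The wild type values of days 0 and 14 overlapped, and every later null library lay above the null ES cells. The log2 fold changes against day 0 were 0.59 (adjusted p = 0.259) and 0.12 (adjusted p = 0.833) at days 8 and 14 in wild type cells, and 0.40 (adjusted p = 0.45) and 0.78 (adjusted p = 0.119) in null cells.

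The Ezh1 share of the methyltransferase transcripts was higher in every later library than in either ES cell library. Within each library the ratio of Ezh1 to Ezh2 per kilobase was 0.0463 in wild type ES cells, 0.189 and 0.218 in the day 8 cultures and 0.163 and 0.224 in the day 14 cultures. Among null libraries it was 0.0309 in ES cells, 0.114 and 0.126 in the day 8 cultures and 0.339 and 0.247 in those of day 14. At day 8 both null ratios were below both wild type ratios, and at day 14 both were above them. No test was run on the ratio. Ezh2 was the more abundant of the pair in all 10 libraries.

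**Figure D2:**
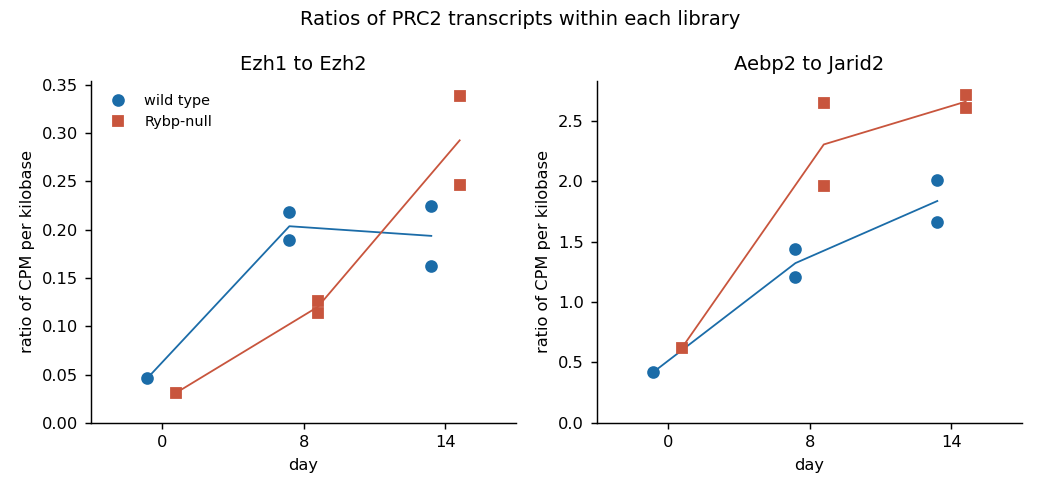
Ratio of CPM per kilobase of Ezh1 to Ezh2 (left) and of Aebp2 to Jarid2 (right) in each library by day, on linear axes from 0, with lines through the group means. Ezh1 to Ezh2 is under 0.05 in both ES cell libraries and between 0.114 and 0.339 in every later library, and Aebp2 to Jarid2 is 0.421 and 0.62 in ES cells and 1.21 to 2.72 later.

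Eed and Suz12, the partners without which EZH2 has little activity, fell with Ezh2. Eed was at 373 CPM in wild type ES cells, at 111 and 125 CPM at day 8 and at 87.9 and 73.8 CPM at day 14. Null ES cells had 283 CPM, and null cultures were at 153 and 84.0 CPM at day 8 and at 85.0 and 115 CPM at day 14. Its log2 fold changes against day 0 were −1.66 (SE 0.30, adjusted p = 0.000893) and −2.21 (SE 0.30, adjusted p = 0.000101) at days 8 and 14 in wild type cells, and −1.25 (SE 0.30, adjusted p = 0.00585) and −1.50 (SE 0.30, adjusted p = 0.00145) in null cells. The 2 null libraries of day 8 lay on either side of both wild type libraries of that day.

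Suz12 was at 530 CPM in wild type ES cells, at 120 and 144 CPM at day 8 and at 165 and 123 CPM at day 14. Among null libraries it was at 521 CPM in ES cells, at 140 and 194 CPM at day 8 and at 119 and 101 CPM at day 14. The log2 fold change from day 0 to day 8 was −2.01 (SE 0.24, adjusted p = 5.05e-05) in wild type and −1.64 (SE 0.24, adjusted p = 0.000237) in null cells, and to day 14 it was −1.88 (SE 0.24, adjusted p = 7.19e-05) and −2.25 (SE 0.24, adjusted p = 1.69e-05). Suz12 was thus close to its day 14 level by day 8 in wild type cultures, where the 2 days overlapped, while both null libraries of day 14 lay below both of day 8.

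The promoters of Ezh2 and Suz12, which fell, and of Ezh1, which had no called change, are shown because E2F factors, the activators of DNA replication genes, are known regulators of Ezh2. All 9 genes had an entry in the RefSeq promoter table (build GRCm38.p6, windows of 300 bases holding 250 before and 50 after a start site), with 13 windows in all because some have several start sites. The E2F words TTTCGCGC, TTTGGCGC, TTTCCCGC and TTTGCCGC were searched on both strands. A word was present in 3 of the 13 windows, those of Ezh2, Suz12 and Phf19, and in 2.26% of the 32851 promoters in the table. Each word holds a CG, and these 3 windows held 31, 41 and 38 CG pairs, against a median of 7 over all promoters. The share of 2.26% is therefore not from promoters of like base composition, whose part was not tested. The lines below run 5′ to 3′ on the strand of the gene, with the E2F word in capitals. Ezh2 lies at chr6:47594981-47595280 (minus strand), Suz12 at chr11:79992856-79993155 (plus strand) and Ezh1 at chr11:101226414-101226713 (minus strand).
Ezh2: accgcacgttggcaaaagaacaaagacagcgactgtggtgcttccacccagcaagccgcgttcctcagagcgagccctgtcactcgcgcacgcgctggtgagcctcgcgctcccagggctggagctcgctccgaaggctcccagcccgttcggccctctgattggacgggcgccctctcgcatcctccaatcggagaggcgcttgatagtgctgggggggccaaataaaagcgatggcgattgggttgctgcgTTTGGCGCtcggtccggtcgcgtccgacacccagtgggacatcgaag
Suz12: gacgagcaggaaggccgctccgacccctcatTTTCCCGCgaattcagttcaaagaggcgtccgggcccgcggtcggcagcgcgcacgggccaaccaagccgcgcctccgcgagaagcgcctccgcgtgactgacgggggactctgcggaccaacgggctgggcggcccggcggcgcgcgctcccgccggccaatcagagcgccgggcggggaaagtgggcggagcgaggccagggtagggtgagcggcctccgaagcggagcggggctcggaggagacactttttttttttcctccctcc
Ezh1: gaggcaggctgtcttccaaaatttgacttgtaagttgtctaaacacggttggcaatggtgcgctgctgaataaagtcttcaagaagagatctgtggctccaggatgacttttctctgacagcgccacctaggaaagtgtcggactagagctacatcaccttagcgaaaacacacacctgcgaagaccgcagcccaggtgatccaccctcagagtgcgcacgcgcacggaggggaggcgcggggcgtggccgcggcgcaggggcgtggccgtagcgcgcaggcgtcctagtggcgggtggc
The Ezh2 word TTTGGCGC lies just downstream of the annotated start and the Suz12 word TTTCCCGC near the upstream end of its window. The Ezh1 window held none of the 4 words. Phf19 holds a word but was not called in any comparison, and Eed, Jarid2, Aebp2 and Mtf2 fell with none in their windows.

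Jarid2 and Mtf2, which represent the alternative accessory sets and bring PRC2 to its sites in ES cells, had the steepest falls. Jarid2 was at 823 CPM in wild type ES cells, at 121 and 131 CPM at day 8 and at 129 and 103 CPM at day 14. Null ES cells had 745 CPM, and null cultures were at 123 and 93.0 CPM at day 8 and at 102 and 106 CPM at day 14. The log2 fold change from day 0 to day 8 was −2.71 (SE 0.21, adjusted p = 1.76e-06) in wild type and −2.79 (SE 0.21, adjusted p = 1.5e-06) in null cells. To day 14 it was −2.83 and −2.84 (SE 0.21 each, adjusted p = 1.15e-06 and 1.04e-06).

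Mtf2 was at 1265 CPM in wild type ES cells, at 207 and 205 CPM at day 8 and at 186 and 140 CPM at day 14. Among null libraries it was at 1521 CPM in ES cells, at 219 and 248 CPM at day 8 and at 150 and 174 CPM at day 14. Its log2 fold changes against day 0 were −2.62 (SE 0.20, adjusted p = 1.65e-06) and −2.96 (SE 0.21, adjusted p = 6.69e-07) in wild type cells, and −2.70 (SE 0.20, adjusted p = 1.38e-06) and −3.23 (SE 0.21, adjusted p = 3.59e-07) in null cells. The ratio of Mtf2 to Jarid2 per kilobase was 2.62 in wild type ES cells, 2.92 and 2.67 in the day 8 cultures and 2.47 and 2.31 in those of day 14. Among null libraries it was 3.48 in ES cells, 3.05 and 4.54 in the day 8 cultures and 2.52 and 2.80 in those of day 14. Exons of Mtf2 overlap those of Tmed5 on the other strand, and the strand setting of the counting is not given in the sources used here, so Mtf2 may hold reads of its neighbour.

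Aebp2, the zinc finger partner of JARID2, fell with smaller log2 fold changes than the other 5. It was at 351 CPM in wild type ES cells, at 176 and 160 CPM at day 8 and at 217 and 210 CPM at day 14. Null ES cells had 469 CPM, and null cultures were at 244 and 250 CPM at day 8 and at 269 and 292 CPM at day 14. The log2 fold change from day 0 to day 8 was −1.06 (SE 0.18, adjusted p = 0.000613) in wild type and −0.92 (SE 0.18, adjusted p = 0.00166) in null cells. To day 14 it was −0.72 (SE 0.18, adjusted p = 0.00704) and −0.74 (SE 0.18, adjusted p = 0.00526). In both genotypes every day 14 library lay above every day 8 library, by 0.35 (adjusted p = 0.282) and 0.18 (adjusted p = 0.549), which did not pass. With Jarid2 low, the ratio of Aebp2 to Jarid2 per kilobase went from 0.421 in wild type ES cells to 1.44 and 1.21 at day 8 and 1.66 and 2.01 at day 14, and from 0.62 in null ES cells to 1.96 and 2.65 and then 2.60 and 2.72.

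Phf19 and Phf1, the other Polycomb-like subunits, had few reads. Phf19 held 9 to 37 counts per library. It was at 9.24 CPM in wild type ES cells, at 4.79 CPM in both libraries of day 8 and at 8.82 and 9.44 CPM at day 14. Null ES cells had 2.54 CPM, and null cultures were at 2.66 and 4.03 CPM at day 8 and at 4.79 and 2.22 CPM at day 14. None of its changes with day was called, the log2 fold changes against day 0 being −0.94 (adjusted p = 0.219) and −0.02 (adjusted p = 0.988) in wild type and 0.38 (adjusted p = 0.677) and 0.45 (adjusted p = 0.598) in null cells.

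Phf1 held 3 to 22 counts per library, which gave 1.98 CPM in wild type ES cells, 1.60 and 1.97 CPM at day 8 and 1.82 and 2.81 CPM at day 14. Null libraries gave 0.508 CPM from 3 counts at day 0, 5.32 and 1.44 CPM at day 8 and 4.50 and 3.71 CPM at day 14. From day 0 to day 8 the null change did not pass (log2 2.68, SE 1.02, adjusted p = 0.0561), and it passed without null day 8 replicate 2 (adjusted p = 0.0161). It rose in null cells from day 0 to day 14, with an adjusted p = 0.0323 and a ratio of pooled CPM of 8.04 (95% counting interval 2.51 to 41.1, exact Clopper-Pearson, from 31 against 3 counts). The interval leaves out the spread between libraries. The day 14 call was lost with DESeq2 (adjusted p = 0.107), without null day 14 replicate 1 (adjusted p = 0.0753) and without null day 14 replicate 2 (adjusted p = 0.0525). Exons of Phf1 overlap those of Cuta on the other strand, whose reads it may hold.

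Taking the 9 genes as a list, 6 fell and 0 rose from day 0 to day 8 in wild type cells, where 19.3% of all genes tested were lower and 21.2% higher. The same 6 fell and 0 rose in null cells, where 18.6% were lower and 19% higher. The 6 were Ezh2, Eed, Suz12, Jarid2, Aebp2 and Mtf2. From day 0 to day 14 the same 6 fell in wild type cells (20.8% of all genes lower, 24.1% higher) and in null cells (22.5% lower), and Phf1 rose in null cells (23.8% higher). The median log2 fold change of the 9 was −1.56 in wild type and −1.25 in null cells at day 8 and −1.88 and −1.50 at day 14, against 0.13, 0.04, 0.18 and 0.08 over all genes tested. The comparisons of days 8 and 14 share the day 0 library. Whether the change from day 0 differed between genotypes was tested by interaction. Of the 9, 0 passed by edgeR from day 0 to day 8, where 0.0316% of all genes passed, and 0 from day 0 to day 14, where 0% did; at an unadjusted p under 0.05 the members' counts were also 0 and 0, against 8.88% and 8.92% of all genes, and DESeq2 called 0 of the 9 in each.

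**Figure D3:**
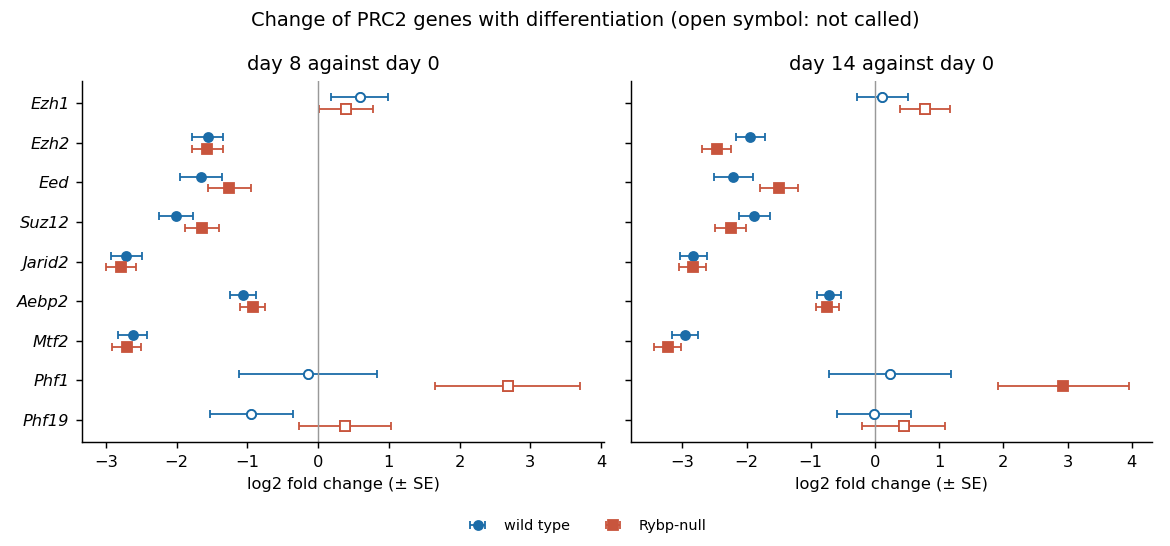
Log2 fold change with its SE of each PRC2 gene against day 0, at day 8 (left) and day 14 (right), for wild type (circles) and Rybp-null cells (squares), with open symbols where the change was not called. In all 4 contrasts Ezh2, Eed, Suz12, Jarid2, Aebp2 and Mtf2 lie left of 0 with filled symbols, Jarid2 and Mtf2 between −2.62 and −3.23.

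Between days 8 and 14 no member was called in wild type cultures, with 0 of 9 by edgeR and by DESeq2, and 1, Aebp2, had an unadjusted p under 0.05. Of all genes tested 4.04% were called and 16.5% had an unadjusted p under 0.05. In null cultures Ezh2 fell further, by 0.90 on the log2 scale (SE 0.19, adjusted p = 0.0131), where 3.41% of all genes were lower. Both null libraries of day 14 were below both of day 8. Without null day 14 replicate 2 the Ezh2 change was −0.85 and no longer passed (adjusted p = 0.085). Suz12 (−0.60, SE 0.21, adjusted p = 0.111) and Mtf2 (−0.53, SE 0.18, adjusted p = 0.0939) pointed the same way and did not pass. Suz12 passed with no filter on low counts (adjusted p = 0.0362) and without null day 8 replicate 1 (−0.82, adjusted p = 0.0312). In wild type cultures the values were −0.38 for Ezh2 (adjusted p = 0.353), 0.13 for Suz12 (adjusted p = 0.841) and −0.34 for Mtf2 (adjusted p = 0.381).

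Genes of the cell cycle moved beside Ezh2. A list of 15 was used, chosen with earlier results of these data known. Of the 15, 12 fell and 0 rose from day 8 to day 14 in null cultures, with a median of −1.13. Of all genes tested 3.41% were lower. Among the 12 were the proliferation antigen Mki67 (−1.51, SE 0.15, adjusted p = 0.000154), the topoisomerase Top2a (−1.17, SE 0.17, adjusted p = 0.00128) and the mitotic kinase Cdk1 (−0.90, SE 0.23, adjusted p = 0.0293). In wild type cultures 1 of the 15 fell, the mitotic kinase Plk1 (−0.80, SE 0.19, adjusted p = 0.0327), with a median of −0.47. Of all genes tested 4.04% were called there, in either direction. The interaction with genotype called 0 of the 15 by edgeR, and 0% of all genes, with a median of −0.66. At an unadjusted p under 0.05 edgeR had 6 of the 15, against 6.08% of all genes. DESeq2 called 1 of the 15, Mki67, and 8 of all genes (edgeR's adjusted p for Mki67 was 0.388). At day 14 the genotypes differed in 1 of the 15, where 0.613% of all genes were called. It was Mki67, which was lower in null cultures (−0.85, SE 0.15, adjusted p = 0.0229). From day 0 to day 14, 13 of the 15 fell in wild type and 15 in null cells, where 20.8% and 22.5% of all genes were lower. The part of proliferation in the fall of Ezh2 was not tested.

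Between null and wild type cultures none of the 9 genes was called at day 8 (edgeR, with 1.26% of all genes called) or at day 14 (0.613%). At each day 2 of the 9 had an unadjusted p under 0.05, Ezh2 and Aebp2 at day 8 and Aebp2 and Phf19 at day 14, and DESeq2 called 0 of 9 at both. Of all genes tested 13.4% and 12.9% were under that unadjusted threshold. The comparison asks whether transcripts of PRC2 differ between cultures with and without a PRC1 subunit. It cannot tell loss of Rybp apart from other differences between these cultures. Median log2 differences at day 8 were 0.42, 0.22, 0.15 and 0.36 for genes of chromosomes 1, 6, 8 and 14. Uty and the summed cardiomyocyte markers were lower in null cultures. The median log2 fold change of null against wild type over the 9 was 0.18 at day 8 and −0.01 at day 14, against 0.01 and −0.01 over all genes tested.

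The 95% intervals of these log2 differences cover the spread between these libraries only, and are not adjusted for the number of genes. Those that lay to 1 side of 0 were those of Aebp2, from 0.22 to 0.89 at day 8 and from 0.06 to 0.73 at day 14, of Ezh2 at day 8 and of Phf19 at day 14 (−2.48 to −0.30). At day 8 that of Phf19 ran from −1.67 to 0.62. For the core subunits at day 8 they ran from 0.02 to 0.84 for Ezh2, from −0.55 to 0.57 for Eed and from −0.12 to 0.79 for Suz12. At day 14 they ran from −0.51 to 0.32 for Ezh2, from −0.25 to 0.88 for Eed and from −0.85 to 0.07 for Suz12. For Jarid2 they were −0.62 to 0.18 and −0.56 to 0.25, and for Mtf2 −0.20 to 0.56 and −0.39 to 0.38. Ezh1, with fewer reads, had wider ones, from −1.03 to 0.34 at day 8 and from −0.17 to 1.20 at day 14. For Phf1 they were −0.65 to 2.51 and −0.70 to 2.30, which leaves even large differences undetectable at this depth.

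**Figure D4:**
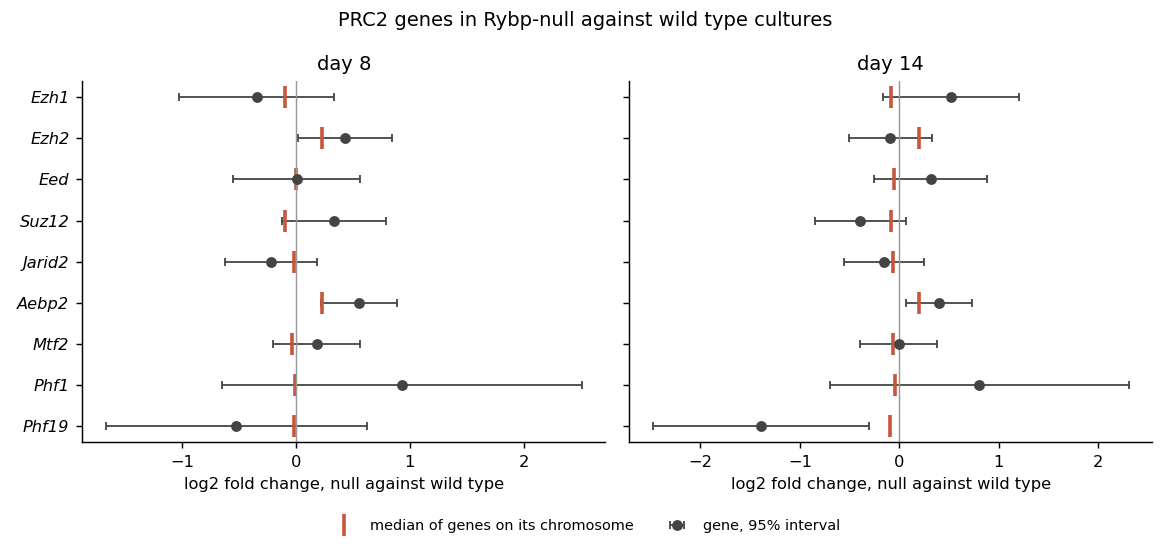
Log2 fold change of null against wild type for each PRC2 gene at day 8 (left) and day 14 (right), with its 95% interval, and as a red tick the median of all tested genes on the same chromosome. None of the 9 was called, and Aebp2 is at 0.56 and 0.39 with its chromosome median at 0.22 and 0.19.

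Aebp2 read higher in null libraries at each day. At day 0 its null to wild type ratio was 1.33 (95% counting interval 1.24 to 1.43). At day 8 the log2 difference was 0.56 (SE 0.15, adjusted p = 0.114). At day 14 it was 0.39 (SE 0.15, adjusted p = 0.285). Every null library lay above every wild type library of its day, as was true of 21.1% of all genes tested at day 8 and 20.9% at day 14. Of the 9 members 3 stood this way at day 8 (Aebp2, Ezh2 and Mtf2) and 3 at day 14 (Aebp2, Ezh1 and Phf1). The mean difference over days 8 and 14, a comparison chosen after these values were seen, was 0.47 (SE 0.11, adjusted p = 0.0293), where 2.33% of all genes were higher. Over all genes that comparison gave 368 higher and 329 lower calls, or 507 and 282 with the scale set from genes outside chromosomes 1, 6, 8, 14, X and Y. It was 0.47 with a replicate block and no longer passed (adjusted p = 0.0602). It also no longer passed without any 1 of wild type day 8 replicate 1 (adjusted p = 0.125), wild type day 8 replicate 2 (0.163), wild type day 14 replicate 1 (0.11), wild type day 14 replicate 2 (0.142), null day 14 replicate 1 (0.0512) or null day 14 replicate 2 (0.0747), with values of 0.44 to 0.51.

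Aebp2 and Ezh2 lie on chromosome 6, as does Rybp itself. The tested genes of that chromosome had a median null to wild type log2 ratio of 0.26 at day 0, 0.22 at day 8 and 0.19 at day 14, against −0.02, −0.04 and −0.07 for autosomes other than 1, 6, 8 and 14. Relative to the chromosome 6 median, Aebp2 was 0.33 higher at day 8 and 0.20 at day 14. Ezh2 had a null to wild type ratio of 1.35 (1.27 to 1.44) at day 0, a log2 difference of 0.43 at day 8 (SE 0.19, adjusted p = 0.348) and of −0.09 at day 14 (SE 0.19, adjusted p = 0.921). Relative to the chromosome 6 median these last differences were 0.21 and −0.29. The part of the chromosome in these values was not tested. The remaining 7 genes lie on chromosomes 2, 5, 7, 11, 13 and 17.

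Phf19 read lower in null libraries, on few counts. At day 0 its null to wild type ratio was 0.275 (0.136 to 0.532, from 15 against 28 counts), and it was the only 1 of the 8 members with at least 5 CPM in either ES cell library to differ by 2-fold or more, as 4.33% of all genes compared did in that direction. No member was 2-fold or more higher (0 of 8, against 7.48% of all genes compared). At day 14 the null libraries pooled 26 counts against 66, a ratio of 0.374 (0.228 to 0.596). That interval covers counting error only and leaves out the spread between libraries, the null ones being at 4.79 and 2.22 CPM. The log2 difference of −1.39 (SE 0.50, adjusted p = 0.245) did not pass, nor did that of day 8 (−0.53, SE 0.53, adjusted p = 0.732) or the mean over days 8 and 14 (−0.96, SE 0.36, adjusted p = 0.172). The null libraries lay below the wild type libraries of the same day at days 8 and 14, as did 20.9% and 22.8% of all genes tested. Phf19 was the 1 member so placed at day 8 and Phf19 and Suz12 the 2 at day 14.

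For the other members at day 0 the null to wild type ratios were 1.20 for Mtf2 (1.16 to 1.25), 0.981 for Suz12 (0.924 to 1.04), 0.905 for Jarid2 (0.861 to 0.951), 0.901 for Ezh1 (0.667 to 1.23), 0.76 for Eed (0.704 to 0.82) and 0.256 for Phf1 (0.0415 to 1.20, from 3 against 6 counts). These intervals cover counting error only, with 1 library on each side, and no test was made. For Eed, below 1 at day 0, the log2 differences of the later cultures were 0.01 at day 8 (adjusted p = 1) and 0.31 at day 14 (adjusted p = 0.706).

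The course from day 8 to day 14 was compared between genotypes by interaction. Of the 9 genes 0 passed, as did 0% of all genes by edgeR; 1 member, Suz12, had an unadjusted p under 0.05, as had 962 of all genes (6.08%), and DESeq2 called 0 of the 9 and 8 of all genes. Suz12 had the member interaction with the lowest p (−0.73, SE 0.30, unadjusted p = 0.0307, adjusted p = 0.783): wild type means went from 132 ± 17.1 to 144 ± 29.6 CPM (SD, n = 2) and null means from 167 ± 38.1 to 110 ± 12.7 CPM. Ezh2 was at −0.52 (SE 0.27, adjusted p = 0.856) and Ezh1 at 0.86 (SE 0.44, adjusted p = 0.857).

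Of 13 further genes listed as PRC2 partners or as enzymes acting on the same histone residue, all passed the low-count filter. This list too was chosen with earlier results of these data known. In wild type cells 2 rose and 5 fell from day 0 to day 8, where 21.2% of all genes tested were higher and 19.3% lower. In null cells likewise 2 rose and 5 fell, where 19% were higher and 18.6% lower. At day 14 against day 0 the counts were 2 and 5 in wild type, where 24.1% of all genes were higher and 20.8% lower. They were 2 and 6 in null cells (23.8% higher, 22.5% lower). Rbbp4, the histone-binding subunit that completes the core, fell from 547 to 248 and 245 CPM in wild type (log2 −1.15, SE 0.19, adjusted p = 0.00051) and from 438 to 229 and 278 CPM in null cells (−0.79, SE 0.19, adjusted p = 0.00661). Its paralog Rbbp7 was at 0.20 (adjusted p = 0.441) and 0.49 (adjusted p = 0.0715). Epop, an elongin-binding PRC2 partner of ES cells, fell from 56.4 to 1.28 and 2.54 CPM in wild type (−4.84, SE 0.67) and from 52.1 to 1.93 and 8.06 CPM in null cells (−3.41, SE 0.59). At day 14 it was at 0.608 and 1.02 CPM in wild type and 12.7 and 5.44 CPM in null cultures, a difference that did not pass (3.38, SE 0.76, adjusted p = 0.0739). Over the mean of days 8 and 14, a comparison chosen after values were seen, Epop was higher in null cultures (2.35, SE 0.53, adjusted p = 0.0279). In that comparison 2.33% of all genes were higher. The call rests on few reads, with 4 and 9 counts at day 8 and 2 and 4 at day 14 in wild type cultures. Null cultures held 8 and 28 counts, then 45 and 22, and the day 8 groups overlapped in CPM.

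The demethylases that remove the mark moved in opposite directions. Kdm6a fell from 125 to 65.8 and 58.6 CPM in wild type (−1.01, SE 0.27, adjusted p = 0.0103) and from 88.7 to 37.2 and 54.4 CPM in null cells (−0.96, SE 0.27, adjusted p = 0.0149). Kdm6b rose from 61.4 to 321 and 319 CPM in wild type (2.38, SE 0.26, adjusted p = 2.21e-05) and from 131 to 228 and 190 CPM in null cells (0.67, SE 0.23, adjusted p = 0.0377). The interaction for Kdm6b did not pass (−1.71, SE 0.33, adjusted p = 0.0774). The corepressor Lcor rose in both genotypes (0.86 and 1.00), and the elongin Eloc fell in both (−0.85 and −0.59). The acetyltransferase Ep300 fell in wild type (−0.76, adjusted p = 0.0118) and was at −0.40 in null cells (adjusted p = 0.149). AU022751, the mouse gene of the PRC2 inhibitor EZHIP, held 4 counts in wild type and 26 counts in null ES cells and 0 counts in each of the 8 later libraries, and was called lower in null cells (adjusted p = 0.0229).

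Between genotypes 2 of the 13 were called at day 8, against 1.26% of all genes tested, and 1 at day 14, against 0.613%. Eloc, on chromosome 1, was higher in null cultures at day 8 (0.95, SE 0.18, adjusted p = 0.0231), at 390 and 297 against 169 and 186 CPM. The tested genes of chromosome 1 had a median log2 difference of 0.42 at day 8, 0.41 at day 14 and 0.55 at day 0. The medians of chromosomes 8 and 14 were also above 0, at 0.15 and 0.36 at day 8. The part of the chromosome in the Eloc value was not tested. Uty, the Y-linked relative of Kdm6a, was lower at day 8 (−2.92, SE 0.39, adjusted p = 0.00381) and at day 14 (−2.54, SE 0.38, adjusted p = 0.0127). Its levels were 4.11 to 6.43 CPM in the null cultures and 22.7 to 43.2 CPM in the wild type ones, with 6.94 against 47.2 CPM at day 0.

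Over the 10 libraries the highest Pearson r on log2(CPM + 1) among the members that fell was 0.973 for Jarid2 with Mtf2, and Ezh2 was at 0.956 with Suz12 and 0.961 with Mtf2. Aebp2 had the lowest values, from 0.661 with Eed to 0.766 with Mtf2. These values rest on the ES cell libraries. Over the 8 later libraries Ezh2 with Suz12 was at 0.758 and Ezh2 with Mtf2 at 0.845, while Jarid2 with Mtf2 was at 0.186 Ezh2 with Jarid2 at −0.028, Eed with Suz12 at −0.187 and Aebp2 with Jarid2 at −0.625. The 3 genes most like Ezh2 over the 10 libraries, out of 6579 with a mean of at least 20 CPM, were the chaperonin subunit Cct6a (r = 0.995), the origin recognition gene Orc1 (r = 0.993) and the chaperonin subunit Cct5 (r = 0.99). For Jarid2 they were Ppia (r = 0.994), whose processed copies may share reads, and the predicted genes Gm9701 (r = 0.994) and Gm13167 (r = 0.994). For Ezh1 the most alike were Snapin (r = 0.895) and the PHD finger gene Phf13 (r = 0.854). These are descriptions over libraries that share genotype and day.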

How the data were processed

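RNA-seq read counts per Ensembl gene in 10 libraries were used as deposited by the authors, with no normalization. The submitters' processing notes name TopHat, HTSeq, DESeq and mm9. Not given in the sources used here are tool versions, the annotation, and the strand and other counting settings. Of the 36191 IDs, 30946 matched a symbol. Exon lengths came from GENCODE vM21 and promoters from RefSeq, both on GRCm38, not mm9, so levels per kilobase are approximate.

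Genes were kept by filterByExpr (minimum count 10) and scaled by TMM, and edgeR 4.0.16 (R 4.3.3) fitted a robust quasi-likelihood model with 6 genotype-by-day groups to all 10 libraries, leaving 4 residual degrees of freedom. Tests were two-sided, with Benjamini-Hochberg adjustment over 15819 genes. SEs were derived from the log2 fold change and its F statistic. At day 0 genotypes were not tested. The fit was tested on simulated counts, with 100 genes changed 2-fold and 100 changed 4-fold. For null against wild type at day 8 it called 36% of the 2-fold and 80% of the 4-fold changes. For wild type day 8 against day 0 it called 13% and 72%. All other genes were simulated without a change between the groups compared. In the real data of this last comparison 6405 of 15819 genes were called, so its simulated rates need not hold there. The changed genes were drawn with a minimum mean count, which leaves out genes as low as Phf1.

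The members and gene lists were chosen with earlier results of these data known. By rule, the 9 members, Rybp, Rbbp4, Rbbp7, Kdm6a and Kdm6b are named whatever their p, other PRC2 partners where they pass, 3 cell cycle genes in list order among those passing, and the 3 genes most correlated with each of Ezh1, Ezh2 and Jarid2 (for Ezh1, 1 of the 3 is not reported here); Plk1 was named after its value was seen, as was the comparison averaged over days 8 and 14. Alternatives were RLE scaling, DESeq2 1.42.0, no filter, a replicate block, scaling from other chromosomes, days 8 and 14 alone, leaving out each later library, and transcript length.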

Additional observations from a re-analysis of the deposited data

How the results depend on the processing

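Depth limits Phf1 and Phf19 most, at 3 to 22 and 9 to 37 counts per library, and 1 library per genotype at day 0 leaves the ES cell genotype difference without a test. The number of members called against day 0 was 6, 6, 6 and 7. The 6 members that fell stayed called under every alternative run that held day 0. Phf1 was gained at day 8 in null cells without null day 8 replicate 2. It was lost at day 14 in null cells with DESeq2 and without either null day 14 library. The counts for null against wild type at days 8 and 14 and for the 3 interactions were 0 under every alternative. With no filter on low counts 2 members were called from day 8 to day 14 in null cultures instead of 1, and leaving out 1 library gave 0 to 2. Over the mean of days 8 and 14 the replicate block gave 0 members in place of 1, and leaving out 1 library gave 0 to 1; the cause was not tested. Replicate numbers did not pair the libraries: the correlation of replicate differences between groups ran from −0.211 to 0.16. The replicate block changed no other member's call, with 6, 6, 6 and 7 members against day 0 as before. Across all genes it moved the calls of null against wild type at day 8 from 200 to 130. For null against wild type, counts over all genes were 284 at day 8 and 200 at day 14 with DESeq2 and 708 and 637 with no filter, in place of 200 and 97. With no filter they were also 1244 in place of 639 (wild type) and 1892 in place of 1217 (null) from day 8 to day 14, 1396 in place of 697 for the mean of days 8 and 14, and 65, 273 and 301 in place of 0, 5 and 0 for the interactions of days 8 to 14, 0 to 8 and 0 to 14. DESeq2 gave 8, 87 and 73 for these, and the replicate block 0, 0 and 0. Leaving out 1 library moved the counts over all genes, and with them the shares printed beside the members' counts. They ran from 28 (without wild type day 8 replicate 1) to 324 (without null day 8 replicate 2) for null against wild type at day 8, and from 14 (without wild type day 14 replicate 2) to 301 (without null day 8 replicate 1) at day 14. They ran from 108 to 935 and from 613 to 1243 for day 8 to day 14 in wild type and null cultures (lowest without wild type day 8 replicate 2 and null day 14 replicate 2), and from 183 to 1050 for the mean of days 8 and 14 (lowest without wild type day 8 replicate 1). For the interactions of days 8 to 14, 0 to 8 and 0 to 14 the highest were 2, 46 and 44. With the scale set from genes outside chromosomes 1, 6, 8, 14, X and Y, the higher and lower calls at day 8 were 101 and 102 instead of 80 and 120, and the day 0 log2 ratio of Mtf2 was 0.33 instead of 0.27. With longest-transcript lengths the Ezh1 to Ezh2 ratio was 0.0342, 0.15 and 0.143 at days 0, 8 and 14 in wild type and 0.0228, 0.0886 and 0.216 in null cells. Signs turned only for members that were not called in the main result or in that alternative. For null against wild type at day 8, Eed was at −0.01 with RLE factors, with DESeq2 and with the replicate block. At day 14 Mtf2 was at 0.05 with the scale from other chromosomes. From day 0 to day 14 in wild type cells Phf19 was at 0.02 with no filter and 0.01 with that scale. Leaving out 1 library at a time turned signs within these ranges. For null against wild type they were −0.62 to 0.01 (Ezh1), −0.5 to 0.37 (Eed) and −0.32 to 1.55 (Phf1) at day 8, and −0.31 to 0.01 (Jarid2) and −0.2 to 0.21 (Mtf2) at day 14. For the interaction of days 8 and 14 they were −0.06 to 0.81 (Eed), −0.12 to 0.29 (Jarid2), −0.38 to 0.03 (Mtf2) and −0.75 to 1.12 (Phf1). From day 8 to day 14 they were −0.1 to 0.32 (Suz12) and −0.29 to 0.03 (Jarid2) in wild type, and −0.61 to 0.25 (Eed), −0.24 to 0.16 (Jarid2), −0.37 to 1.49 (Phf1) and −0.57 to 0.53 (Phf19) in null cultures. From day 0 to day 14 they were −0.08 to 0.28 (Ezh1), −0.11 to 0.5 (Phf1) and −0.07 to 0.03 (Phf19) in wild type, and −0.19 to 0.91 (Phf19) in null cells.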
